A study of Homo sapiens with 10 samples.

Results

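Neurospheres grown from ReNcell VM, a human neural progenitor line made immortal for culture, were compared after differentiation under a phthalate mixture (Mix) and under a single phthalate, DEP (diethyl phthalate), both labelled 100 µM. The comparison takes 2 Mix libraries against 2 DEP libraries, 4 of the 10 RNA-seq libraries of the series, and covers every gene with enough counts for a test, 19465 of 46427 in the table. The other libraries are 2 each of a vehicle control (0.1% DMSO), DProP and DPP, the last pair also at 100 µM. All neurospheres differentiated for 6 days on laminin, with medium and substances replaced every 2 days, and 6 neurospheres were pooled per library before exome capture sequencing. Which compounds Mix holds, whether its 100 µM is their sum or the dose of each, and whether paired libraries stem from separate cultures is not given in the labels. The p values therefore measure the spread between these libraries, and a culture or library batch that coincided with a group cannot be told apart from treatment. The study looks at developmental neurotoxicity, and sets single short-chain phthalates beside a mixture because people meet several at once.

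Phthalates are diesters of phthalic acid used as plasticisers and solvents, and diethyl phthalate is common in personal care products. Neural progenitors that lose their growth factors leave the cell cycle, migrate away from the sphere and become neurons, astrocytes and oligodendrocyte precursors. Each step has its own transcripts: stem cell factors of the SOX family, proneural transcription factors, cytoskeletal genes of neurites, glial transporters and the proteoglycans of oligodendrocyte precursors. Membrane growth in these cells also draws on cholesterol, which neural cells make themselves through a pathway switched on by the transcription factor SREBP2.

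Mix and DEP differed in 752 genes, 3.86% of those tested, of which 554 (2.85%) were higher and 198 (1.02%) lower in Mix (edgeR's quasi-likelihood test, Benjamini-Hochberg adjusted p under 0.05). Most differences were small: 459 of the 752 genes differed by less than 1.5-fold, and 99 (0.509% of tested genes) differed at least 2-fold, 69 of them higher and 30 lower in Mix. The median size among the 752 was 0.49 on the log2 scale, and the median log2 fold change over all tested genes was -0.000638. Both Mix libraries lay beyond both DEP libraries in all 752, as they did in 51.9% of all tested genes. Protein-coding genes made up 546 of the higher and 168 of the lower genes, out of 14905 tested. Among 1875 long non-coding RNA genes 6 were higher and 18 lower, with a median log2 fold change of -0.16 against 0.02 for protein-coding genes. Medians were also below 0 for pseudogenes (-0.18, 1133 tested), microRNA genes (-0.14, 333 tested) and small nucleolar RNA genes (-0.21, 264 tested). Some classes of few genes lay above 0, such as Y RNA (0.23, 2 tested). Whether exome capture bears on these medians was not tested.

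The gene set was smaller whenever a Mix or DEP library was left out. Without Mix 1 the count was 135, without Mix 2 it was 421, without DEP 1 it was 36 and without DEP 2 it was 87. Removing the trend with GC content and gene length from each library gave 1272 genes, 626 higher and 646 lower. The lean toward higher genes (73.7% with the deposited counts) thus became 49.2% under that correction. Over protein-coding genes the Spearman correlation of the log2 fold change was 0.18 with transcript length and -0.04 with GC content. Longer transcripts thus tended to be higher in Mix. Whether length bears on the directions of the gene lists below was not tested. Of the 752 genes, 506 were called in all 10 alternatives that leave out no Mix or DEP library. Beside a 2-fold minimum 14 alternatives were run, and none of the 752 changed sign in an alternative that tested it. A gene that an alternative did not test, or left without an adjusted p, counted as not called there. Across the 44 gene lists described below, 131 list places held a called gene, and this number was 25, 85, 7 and 20 without Mix 1, Mix 2, DEP 1 and DEP 2.

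**Figure D1:**
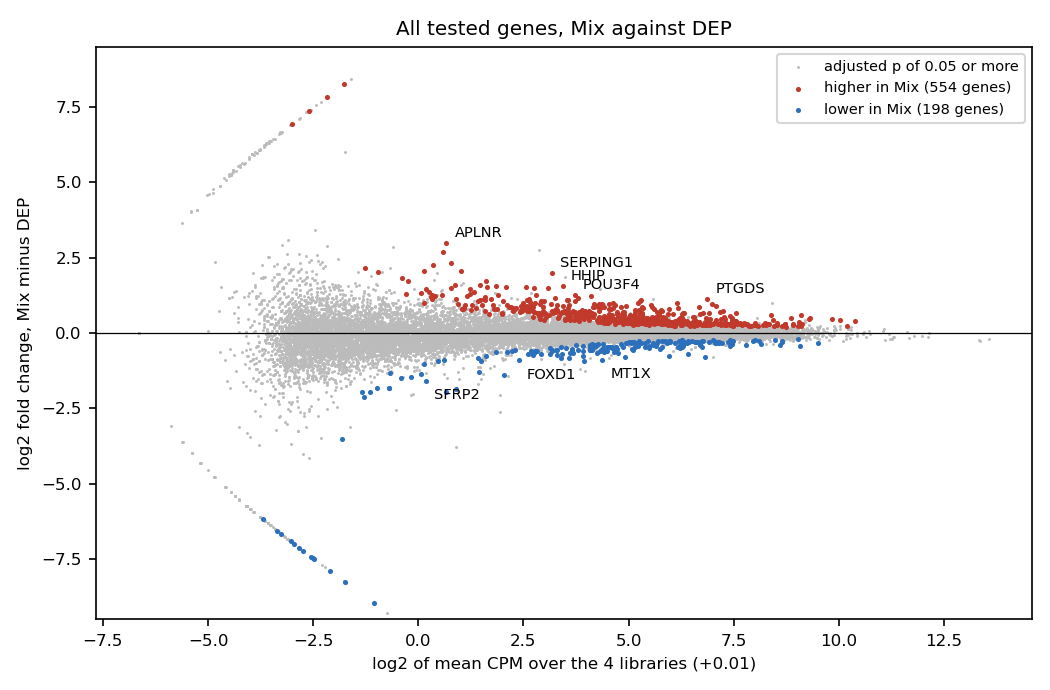
Each point is one of the 19465 tested genes, with the log2 of its mean CPM over the 2 DEP and 2 Mix libraries (plus 0.01) on the x axis and its log2 fold change, Mix minus DEP, on the y axis. Red and blue points passed the threshold: 554 genes were higher and 198 lower in Mix, and the thin diagonal arms at low CPM are genes with no count in either library of one group.

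**Figure D2:**
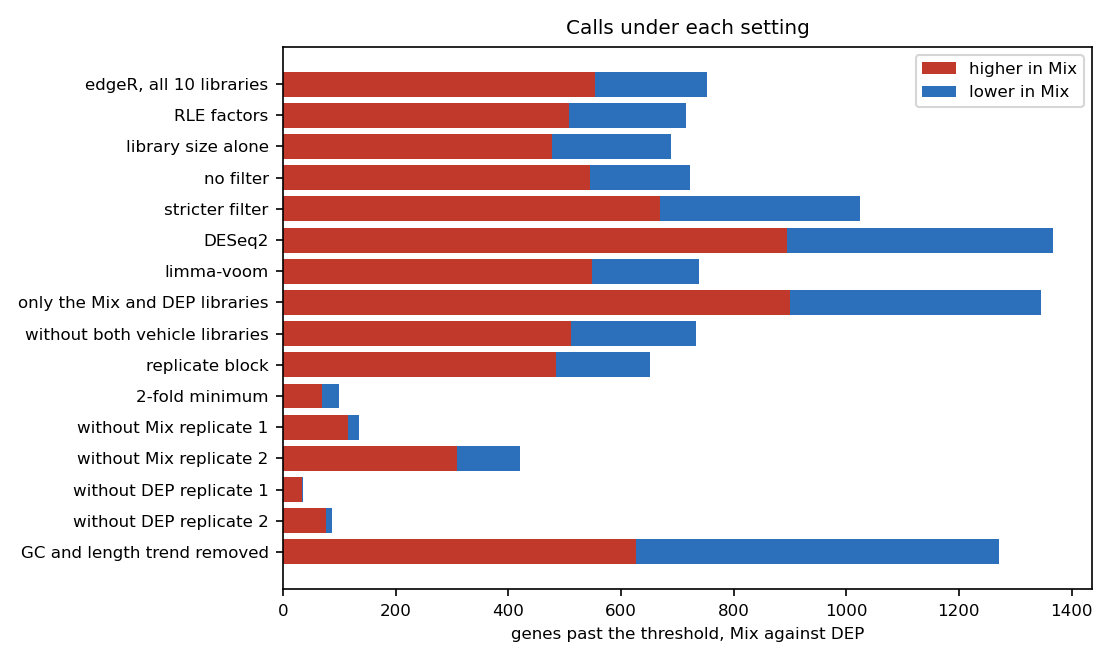
Bars give the number of genes past the threshold in Mix against DEP under each setting, with genes higher in Mix in red and genes lower in Mix in blue. Leaving out one Mix or DEP library lowered the count from 752 to between 36 and 421, and removing the GC and length trend moved the balance to 626 higher and 646 lower.

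The defining markers of the labelled cells were present. CPM (counts scaled to library size, with TMM factors) of the 6 progenitor markers summed to 4243 and 4262 in DEP and 4022 and 4224 in Mix, and those of the 6 astrocyte markers to 3614 and 3452 in DEP and 3804 and 3492 in Mix. The 7 neuron markers summed to 1323 and 1453 CPM in DEP and to 1643 and 1656 CPM in Mix. Of 6 microglia markers none had enough counts for a test and 3 were at 0 in all 10 libraries, with a sum of at most 0.453 CPM in any library. Markers of mesenchyme and pericytes summed to 84.0 and 79.5 CPM in DEP and 61.6 and 67.5 CPM in Mix. The lower sum came mostly from PDGFRB, with 65.4 and 60.9 CPM in DEP and 40.8 and 47.3 CPM in Mix. RGS5 was slightly lower in Mix, while COL1A1 and LUM, at low levels, were higher in both Mix libraries than in both DEP libraries. The sum thus does not show a shared fall of these markers. Whether mesenchymal cells or pericytes bear on the differences below was not tested. In bulk libraries such as these, fewer cells of a type and less RNA per cell cannot be told apart. Mitochondrially encoded transcripts took between 0.0825% and 0.0996% of the counts in these 4 libraries against 0.0255% and 0.0343% in vehicle. MALAT1 took between 0.344% and 0.394% against 1.25% and 0.946% in vehicle. The TMM factors lay between 1.004 and 1.024 against 0.917 and 0.915 in vehicle. The vehicle values given below thus come from libraries with another RNA composition.

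A set of 30 genes, all higher in Mix, was called in every one of these 14 alternatives, including each omission of a library. It was picked after its values were seen. It is a mixed set, with secreted proteins, transcription factors and adhesion molecules beside genes of other kinds, and no set test was run. SERPING1 (gene 710, chr11:57597685-57614848 of GRCh38.p14), which encodes the complement C1 inhibitor, stood at 3.36 and 3.90 CPM in DEP and 15.03 and 14.02 CPM in Mix, and at 7.76 and 6.70 CPM in vehicle. Both Mix libraries lay above the other 8 libraries and both DEP libraries below vehicle, as did those of DProP and DPP. The log2 fold change was 2.00 ± 0.22 (SE; edgeR's quasi-likelihood adjusted p = 0.00108). HHIP (chr4:144646156-144745271), a membrane protein that binds and restrains hedgehog ligands, had 4.97 and 5.96 CPM in DEP and 17.4 and 14.8 CPM in Mix. No other group reached that level: vehicle had 8.999 and 7.01 CPM, DProP 5.53 and 6.16 CPM and DPP 5.34 and 5.30 CPM. For HHIP the log2 fold change was 1.56 ± 0.15 (edgeR adjusted p = 0.000503).

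POU3F4 (chrX:83508290-83512127), a POU-domain transcription factor of the developing nervous system, showed the same order, with 7.08 and 8.50 CPM in DEP and 19.3 and 17.9 CPM in Mix and 10.4 and 10.1 CPM in vehicle (log2 fold change 1.25 ± 0.13, edgeR adjusted p = 0.000615). Its 2 Mix values were above all other libraries, while the DEP values overlapped those of DProP. SALL3, a zinc finger transcription factor gene, was at 7.20 and 7.64 CPM in DEP and 14.9 and 16.7 CPM in Mix (1.09 ± 0.12). SFRP1, which encodes a secreted Wnt antagonist, had 31.0 and 28.8 CPM in DEP and 49.4 and 45.6 CPM in Mix, and the vehicle, DProP and DPP libraries all lay with DEP between 28.8 and 32.0 CPM (0.67 ± 0.08, edgeR adjusted p = 0.00129). MIR9-1HG, the host transcript of the neural microRNA miR-9, had 83.0 and 84.9 CPM in DEP and 134 and 133 CPM in Mix (0.67 ± 0.06). FREM2, an extracellular matrix protein gene, had 115 and 114 CPM in DEP and 205 and 173 CPM in Mix and 108 and 106 CPM in vehicle (0.72 ± 0.08). In each of these genes both Mix libraries lay above all other groups.

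In PTGDS, SLC4A3 and CCS, Mix lay near vehicle, and DEP, DProP and DPP all lay below it. PTGDS had 108 and 106 CPM in DProP and 87.9 and 72.7 CPM in DPP. SLC4A3 had 28.7 and 32.9 CPM in DProP and 26.3 and 25.4 CPM in DPP. CCS had 5.64 and 5.48 CPM in DProP and 4.48 and 4.62 CPM in DPP. PTGDS (chr9:136977504-136981742), the prostaglandin D synthase of glia and the meninges, had 74.0 and 73.1 CPM in DEP and 171 and 150.4 CPM in Mix, against 148 and 158 CPM in vehicle. The Mix values overlapped those of vehicle, and DEP was the group with the lowest mean of the 5 (log2 fold change 1.13 ± 0.09, edgeR adjusted p = 0.000329). The anion exchanger gene SLC4A3 had 28.0 and 28.4 CPM in DEP and 51.4 and 51.0 CPM in Mix, with 47.6 and 46.3 CPM in vehicle (0.86 ± 0.07). GPR37L1, an orphan receptor gene of astrocytes, had 41.5 and 42.8 CPM in DEP and 72.3 and 66.4 CPM in Mix and 81.8 and 86.9 CPM in vehicle, above both (0.72 ± 0.07). Its values were 39.0 and 40.2 CPM in DProP and 32.5 and 28.8 CPM in DPP, below DEP. CCS, the copper chaperone for superoxide dismutase, had 4.79 and 5.06 CPM in DEP and 9.38 and 10.8 CPM in Mix and 9.39 and 9.98 CPM in vehicle (1.03 ± 0.12). The adhesion and guidance members of the set were CDH11 (0.64 ± 0.07), a cadherin, ASTN1 (1.00 ± 0.12), a neuron-glia adhesion protein of migrating neurons, TENM4 (0.67 ± 0.08), a teneurin, CLSTN3 (1.01 ± 0.11), a synaptic calsyntenin, and NEO1 (0.46 ± 0.05), a receptor for netrins. In ASTN1 and TENM4 Mix rather than DEP stood apart from vehicle, with log2 fold changes against vehicle of 0.91 in Mix and -0.09 in DEP for ASTN1 and of 0.50 and -0.17 for TENM4. VLDLR, a reelin receptor, stood at 23.0 and 23.1 CPM in DEP and 35.6 and 34.2 CPM in Mix (0.60 ± 0.07). The remaining members were APOL4, ST8SIA5, NYNRIN, TCIM, NFATC4, RAB11FIP4, TMEM132B, NPTXR, ADGRG6, INPP5D, SEZ6L, RNF180 and MEGF10, with log2 fold changes from 0.66 to 1.48. In 26 of the 30 genes both Mix libraries lay above the other 8 libraries, at times by a narrow margin, and in 3 both DEP libraries lay below the other 8.

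**Figure D3:**
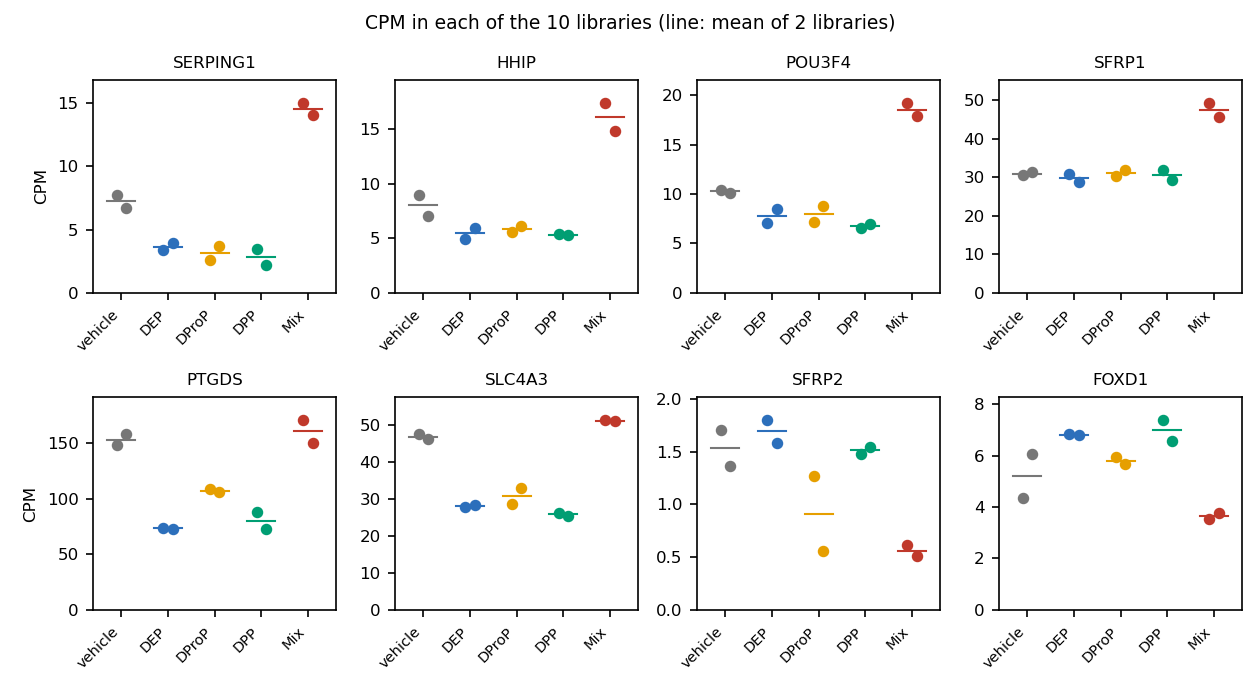
CPM of 8 genes (y axis, linear, from 0) in each of the 10 libraries by group (x axis), with points for libraries and a line for the mean of 2 libraries. In SERPING1, HHIP, POU3F4 and SFRP1 the Mix points lie above every other group. In PTGDS and SLC4A3 Mix lies near vehicle while DEP, DProP and DPP lie below it, and in SFRP2 and FOXD1 Mix lies below DEP.

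The place of Mix and DEP among all 10 libraries was counted for every called gene. Of the 554 genes higher in Mix, 267 (48.2%) had both Mix libraries above the other 8 and 59 (10.6%) had both DEP libraries below the other 8. Of the 198 genes lower in Mix, 111 (56.1%) had both Mix libraries below the other 8 and 32 (16.2%) had both DEP libraries above them. Over all tested genes Mix was above the rest in 6.53% and below in 4.71%, and DEP was above in 2.02% and below in 1.87%. The call itself separates Mix from DEP, so the first shares cannot be read against the second.

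The largest increases among called genes with a mean of at least 1 CPM were mostly at low levels. APLNR (chr11:57233591-57237250), the receptor for apelin, had 0.321 and 0.382 CPM in DEP and 3.68 and 1.93 CPM in Mix, and 2.16 and 1.69 CPM in vehicle. DEP was the lowest group, and 1 Mix library lay within the range of vehicle and the other above it (log2 fold change 2.99 ± 0.35, edgeR adjusted p = 0.00132, or 0.0523 without DEP 1). BPIFB2, of a family of secreted lipid-binding proteins, had 0.349 and 0.453 CPM in DEP and 2.76 and 2.41 CPM in Mix (2.68 ± 0.29). GABRQ, the theta subunit of the GABA-A receptor, had 0.377 and 0.764 CPM in DEP and 2.74 and 2.98 CPM in Mix, and DPP6, an auxiliary subunit of potassium channels, had 0.433 and 0.396 CPM in DEP and 2.03 and 1.47 CPM in Mix. For both, DEP overlapped vehicle and the Mix libraries lay above all others (2.32 ± 0.50 and 2.08 ± 0.37). CD74, the MHC class II invariant chain, had 0.265 and 0.608 CPM in DEP and 2.07 and 2.103 CPM in Mix (2.25 ± 0.41). SULF1, an enzyme that trims heparan sulfate, had 0.740 and 0.821 CPM in DEP and 3.40 and 3.11 CPM in Mix (2.06 ± 0.25, edgeR adjusted p = 0.00145, or 0.0523 without DEP 1). KY and CNGA3 were lower in DEP, DProP and DPP than in Mix or vehicle: KY, a muscle protease-like gene, had 1.30 and 1.46 CPM in DEP and 4.31 and 3.97 CPM in Mix and 5.27 and 6.02 CPM in vehicle (1.59 ± 0.21), and CNGA3, a cyclic nucleotide-gated channel gene, had 1.51 and 1.34 CPM in DEP and 5.45 and 3.97 CPM in Mix and 3.08 and 4.14 CPM in vehicle (1.72 ± 0.23). The other increases that the naming rule gives were PLAAT5 (1.60 ± 0.28) and C10orf90 (1.57 ± 0.23). In at least 1 alternative the calls of GABRQ, CD74, DPP6, CNGA3, KY, PLAAT5 and C10orf90 ended, with adjusted p up to 0.268.

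The 12 largest decreases among called genes with a mean of at least 1 CPM did not all reach 2-fold. SFRP2, secreted like SFRP1, had 1.80 and 1.58 CPM in DEP and 0.614 and 0.510 CPM in Mix, against 1.71 and 1.37 CPM in vehicle. Mix was below DEP, vehicle and DPP, and overlapped 1 DProP library (log2 fold change -1.58 ± 0.33, edgeR adjusted p = 0.0241). SFRP1 and SFRP2, close relatives, thus moved in opposite directions, at very different levels. FOXD1, a forkhead transcription factor gene, had 6.82 and 6.80 CPM in DEP and 3.52 and 3.76 CPM in Mix and 4.35 and 6.07 CPM in vehicle (-0.90 ± 0.16, edgeR adjusted p = 0.0127). ITGA2B, an integrin subunit of platelets, had 4.03 and 3.27 CPM in DEP and 1.73 and 2.12 CPM in Mix, and Mix overlapped vehicle at 1.86 and 1.80 CPM (-0.92 ± 0.19). SCARNA5, a small Cajal body RNA (-1.40 ± 0.30), and RNA5S6, a 5S ribosomal RNA gene with near-identical copies whose reads cannot be assigned with certainty (-1.86 ± 0.27), were lower as well. The decrease of ARL2-SNX15 (-1.97 ± 0.43), a readthrough transcript that shares reads with ARL2 and SNX15, is uncertain for the same reason, as are the antisense genes RAB11B-AS1 (-1.02 ± 0.25) and HDAC4-AS1 (-0.92 ± 0.23), since no strand setting is given. TCP11, LRRC74B, SSPOP and DUSP8P2 completed the 12, from -1.37 to -0.90. Each of the 12 calls ended in at least 1 alternative, with adjusted p up to 0.369.

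Several cholesterol synthesis genes were higher in Mix. Of 25 list members, all tested, 8 were higher and 0 lower, 32% against 2.85% of all genes, and 23 of 25 had a log2 fold change above 0 (median 0.21, against -0.000638 over all genes). STARD4 (chr5:111496033-111512535), a carrier of cholesterol between membranes, had 51.8 and 51.6 CPM in DEP and 69.5 and 68.3 CPM in Mix. The 2 groups did not overlap, DEP lay within the range of vehicle (55.0 and 45.1 CPM), and Mix lay below DProP (81.2 and 83.2 CPM) and slightly below DPP (74.8 and 69.9 CPM). The log2 fold change was 0.42 ± 0.08 (edgeR adjusted p = 0.0192). NSDHL and MSMO1, which remove methyl groups from sterol intermediates, had 34.3 and 33.9 CPM in DEP and 46.4 and 46.0 CPM in Mix for NSDHL (0.44 ± 0.09) and 79.0 and 83.9 CPM in DEP and 109.7 and 99.5 CPM in Mix for MSMO1 (0.36 ± 0.07). The mevalonate kinase gene MVK (10.8 and 10.98 CPM in DEP and 15.8 and 15.996 CPM in Mix, 0.55 ± 0.12), the upstream synthase HMGCS1 (0.33 ± 0.07) and CYP51A1, the lanosterol demethylase (0.29 ± 0.07), fall outside the naming rule and were named after their values were seen. In these 6 genes DEP had the lowest mean of the 4 treatments. In the list of cholesterol efflux genes and LXR targets the exporter ABCA1 was lower (833 and 794 CPM in DEP and 677 and 629 CPM in Mix, -0.32 ± 0.07). It was the 1 call among 12 tested (8.33% lower, against 1.02% of all genes). The count of 8 became 1 without Mix 1, 3 without Mix 2, 0 without DEP 1 and 1 without DEP 2.

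Promoters of this set are shown because its members moved together and because SREBP2 acts there with NF-Y, a factor that binds the CCAAT box. RefSeq (GRCh38.p14) gave the 250 bases before the start site for 6 of the 8 genes, and CCAAT, read on both strands, was in 5 of those 6: STARD4, NSDHL, MSMO1, MVK and 1 of 2 entries of HMGCS1. The same letters were in 32.0% of all 35116 promoter entries. NSDHL and MVK held 5 copies and MSMO1 held 4, and 0.874% of all entries held 4 or more. The SREBP motif TCACNCCAC was in none of the 6 (0.883% of all entries), nor was the E-box CACGTG (6.34%), while the GC box GGGCGG was in 5 of 6 (42.6%). These matches describe letters in a window and are not evidence of binding. Capitals mark CCAAT on either strand (ATTGG where it lies on the other) in the 3 promoters with most copies, all on the plus strand: MVK at chr12:109573544-109573793, NSDHL at chrX:152830813-152831062 and MSMO1 at chr4:165327419-165327668.
MVK: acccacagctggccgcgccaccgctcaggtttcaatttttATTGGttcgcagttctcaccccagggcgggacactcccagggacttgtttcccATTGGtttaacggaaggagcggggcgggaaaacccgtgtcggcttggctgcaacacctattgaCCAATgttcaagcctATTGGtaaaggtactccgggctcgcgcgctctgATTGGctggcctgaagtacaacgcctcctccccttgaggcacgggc
NSDHL: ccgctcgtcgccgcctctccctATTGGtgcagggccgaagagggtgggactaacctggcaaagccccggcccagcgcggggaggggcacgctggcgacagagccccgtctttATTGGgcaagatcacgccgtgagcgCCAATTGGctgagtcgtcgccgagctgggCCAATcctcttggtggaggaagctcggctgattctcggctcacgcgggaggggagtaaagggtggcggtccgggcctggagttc
MSMO1: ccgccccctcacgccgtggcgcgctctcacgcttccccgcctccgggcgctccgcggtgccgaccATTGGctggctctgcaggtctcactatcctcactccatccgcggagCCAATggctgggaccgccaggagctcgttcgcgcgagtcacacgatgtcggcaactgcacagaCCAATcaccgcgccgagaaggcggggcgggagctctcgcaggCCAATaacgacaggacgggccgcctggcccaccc

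Several motile cilium genes were lower in Mix. Of 43 tested members 7 were lower and 0 higher, 16.3% against 1.02% of all genes, and 34 of 43 had a log2 fold change below 0 (median -0.27). DNAI1 (chr9:34458805-34520984), an intermediate chain of the outer dynein arm, had 15.98 and 15.04 CPM in DEP and 6.91 and 10.4 CPM in Mix, and 18.3 and 16.2 CPM in vehicle. Mix was the lowest group on average, with 1 library within the range of DPP (log2 fold change -0.84 ± 0.16, edgeR adjusted p = 0.0149). RFX2, a transcription factor of cilium genes, had 55.2 and 50.5 CPM in DEP and 34.5 and 40.0 CPM in Mix and 50.3 and 55.1 CPM in vehicle (-0.51 ± 0.10, edgeR adjusted p = 0.0172). DNAAF1, a dynein assembly factor, had 15.3 and 14.6 CPM in DEP and 8.12 and 10.7 CPM in Mix (-0.67 ± 0.14), and DNAH7, an inner arm dynein heavy chain, had 158 and 158 CPM in DEP and 125 and 126 CPM in Mix (-0.33 ± 0.07). In DNAH7 Mix lay near vehicle (131 and 128 CPM) and DEP lay above it. Over the 43 members the median log2 fold change of Mix was -0.45 against vehicle, -0.005 against DProP and 0.10 against DPP. That of DEP against vehicle was -0.13. CFAP70 (-0.41 ± 0.10), the dynein gene DNAH12 (-0.47 ± 0.11) and the radial spoke gene RSPH1 (-0.46 ± 0.11) were also lower and were named after their values were seen. In DNAAF1 and RSPH1 the Mix values overlapped those of DProP and DPP, and DEP was the treatment that stayed near vehicle (12.99 and 12.8 CPM for DNAAF1 and 26.1 and 27.3 CPM for RSPH1). The count of 7 became 0 without Mix 1, DEP 1 or DEP 2 and 6 without Mix 2.

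**Figure D4:**
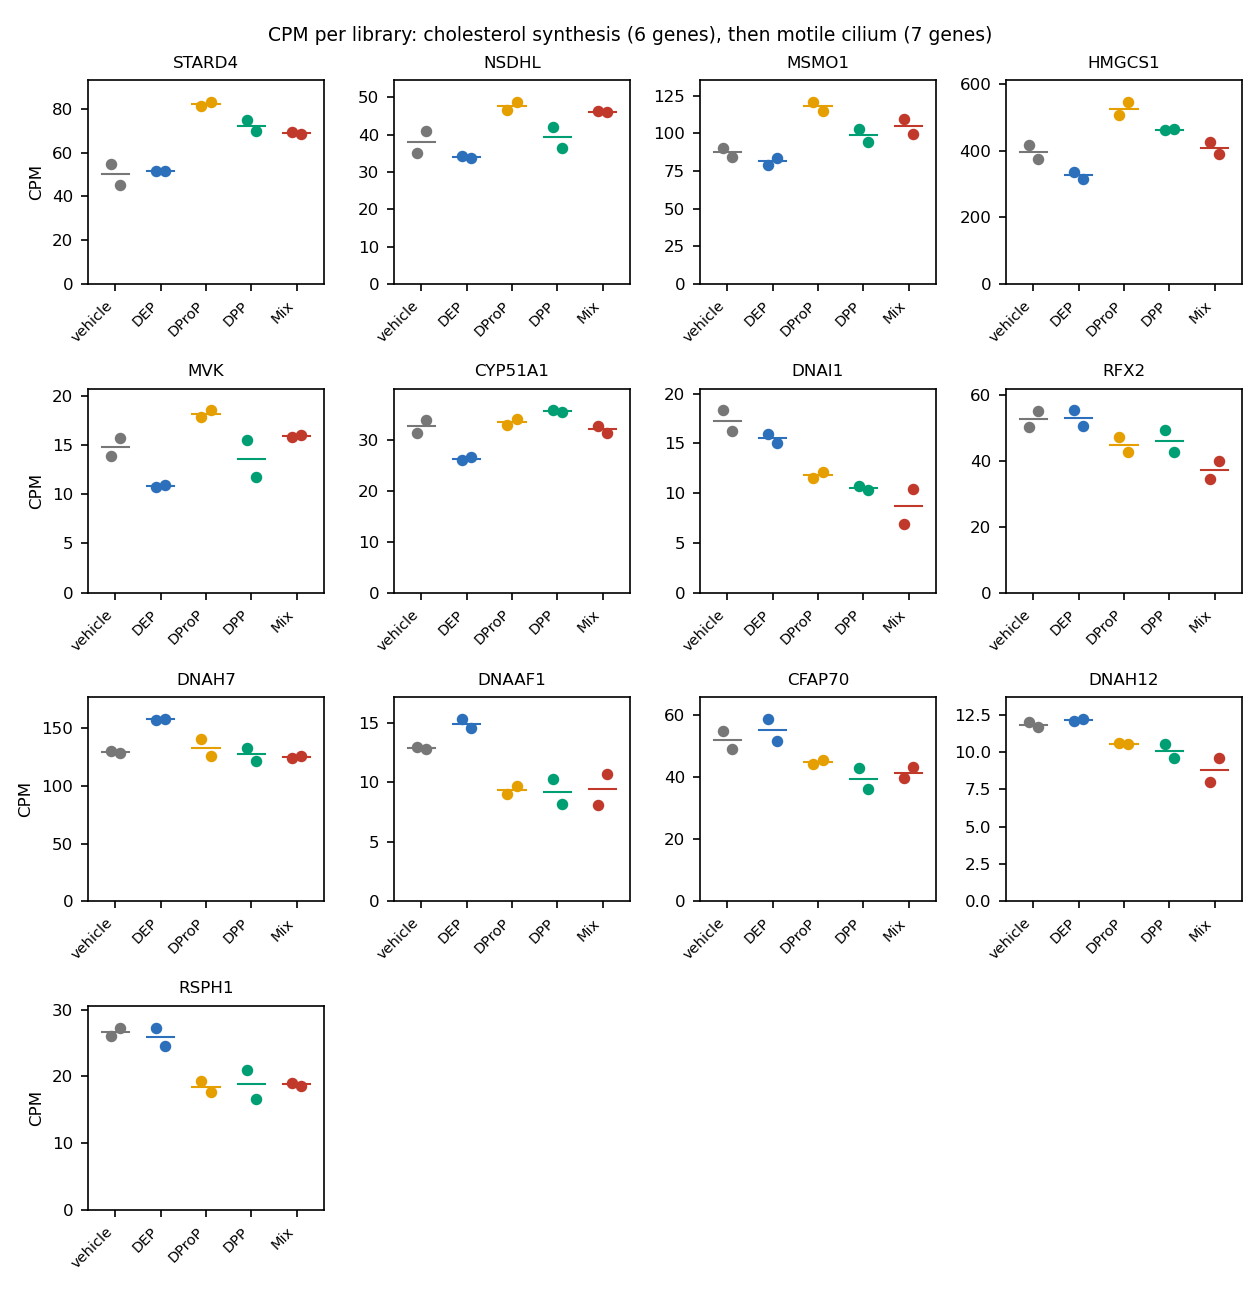
CPM (y axis, linear, from 0) in each of the 10 libraries by group (x axis) for 6 called cholesterol synthesis genes, then the 7 called motile cilium genes, with a line for the mean of 2 libraries. DEP has the lowest treated mean in each cholesterol panel and the highest treated mean in each cilium panel.

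The most general progenitor and neuronal markers were not called, while some members of these lists were higher in Mix. SOX2 (0.07 ± 0.06), NES (-0.14 ± 0.06), VIM (-0.01 ± 0.07), TUBB3 (0.34 ± 0.13), DCX (0.24 ± 0.13) and MAP2 (0.18 ± 0.06) did not pass the test, with edgeR adjusted p from 0.121 to 0.948. Of 22 progenitor genes 5 were higher and 0 lower (22.7% higher, against 2.85% of all genes, median 0.10). SOX3, a SOXB1 factor like SOX2, had 4.93 and 5.38 CPM in DEP and 10.5 and 11.1 CPM in Mix and 4.66 and 5.55 CPM in vehicle, so Mix stood about as far above vehicle as above DEP (1.07 ± 0.16, edgeR adjusted p = 0.00562). SOX1, of the same subfamily, had 12.8 and 12.3 CPM in DEP and 21.2 and 20.5 CPM in Mix (0.74 ± 0.14). PROM1, the membrane glycoprotein CD133, had 11.8 and 12.7 CPM in DEP and 25.1 and 22.8 CPM in Mix and 21.5 and 22.9 CPM in vehicle (0.96 ± 0.15). The Notch target HES1 (0.27 ± 0.07) differed less.

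In the list of proneural and neuronal transcription factors 4 of 29 were higher and 0 lower (13.8% higher, against 2.85% of all genes, median 0.32). NEUROD1, which drives neuronal differentiation, had 5.26 and 6.52 CPM in DEP and 13.5 and 12.6 CPM in Mix, and 14.1 and 11.8 CPM in vehicle. Mix lay within the range of vehicle, and DEP, DProP and DPP all lay below it (1.15 ± 0.16, edgeR adjusted p = 0.00330, or 0.0847 without DEP 1). EBF2 (27.8 and 29.9 CPM in DEP and 40.4 and 45.3 CPM in Mix, 0.57 ± 0.08) and LHX1 (0.65 ± 0.16), factors of postmitotic neurons, were higher as well. Among 39 neuronal markers 5 were higher and 1 lower (12.8% higher against 2.85%, 2.56% lower against 1.02%, median 0.18). MAPT, the microtubule protein tau, had 53.2 and 50.3 CPM in DEP and 99.8 and 84.7 CPM in Mix (0.83 ± 0.12), GAD1, the GABA-synthesising enzyme, had 36.2 and 41.1 CPM in DEP and 55.1 and 55.5 CPM in Mix (0.52 ± 0.09), and the synaptic vesicle sensor SYT1 had 60.7 and 66.8 CPM in DEP and 84.3 and 78.8 CPM in Mix (0.36 ± 0.07). NEFL, the light neurofilament, went the other way with 16.4 and 14.9 CPM in DEP and 9.42 and 10.3 CPM in Mix, below vehicle (18.7 and 17.6 CPM) and far below DPP (29.6 and 34.3 CPM) (-0.67 ± 0.10, edgeR adjusted p = 0.00574). Synaptic genes were higher in 3 of 44 cases (6.82% against 2.85%), all neuroligins: NLGN1 (0.38 ± 0.08), NLGN2 (0.39 ± 0.07) and NLGN3 (0.27 ± 0.07). That count was 1 without Mix 1 or Mix 2 and 0 without DEP 1 or DEP 2. Of 53 genes of neurite growth and axon guidance 5 were higher (9.43%, and 1, 1, 0 and 0 genes without Mix 1, Mix 2, DEP 1 and DEP 2), among them the ephrin receptors EPHB1 (0.42 ± 0.08) and EPHA4 (0.32 ± 0.06), the Slit receptor ROBO2 (0.38 ± 0.07) and SEMA6D (0.33 ± 0.08).

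The called genes of the astrocyte and oligodendrocyte lists were all higher in Mix. Of 28 astrocyte genes 6 were higher and 0 lower (21.4% higher, against 2.85% of all genes), yet the median was 0.03 and GFAP (2777 and 2589.9 CPM in DEP and 2459 and 2394 CPM in Mix, -0.15 ± 0.08, edgeR adjusted p = 0.338) and S100B (-0.09 ± 0.11) were not called. SLC1A3, a glutamate transporter, had 367 and 406 CPM in DEP and 556 and 537 CPM in Mix, below vehicle at 669 and 666 CPM (0.50 ± 0.08, edgeR adjusted p = 0.00813). The adhesion protein gene HEPACAM (16.3 and 13.9 CPM in DEP and 31.8 and 23.4 CPM in Mix, 0.87 ± 0.14), the gliogenic factor NFIA (503 and 563 CPM in DEP and 760.2 and 703 CPM in Mix, 0.46 ± 0.07) and the folate enzyme ALDH1L1 (1.62 and 1.85 CPM in DEP and 3.48 and 3.79 CPM in Mix, 1.07 ± 0.21) were also higher. In the oligodendrocyte list 4 of 19 were higher (21.1%) and 0 lower, with a median of 0.40 that was 0.12 under the stricter filter. CSPG4 (chr15:75674322-75713466), the NG2 proteoglycan of oligodendrocyte precursors, had 4.17 and 3.37 CPM in DEP and 7.27 and 7.62 CPM in Mix and 6.26 and 6.07 CPM in vehicle. DEP was the lowest of the 5 groups and Mix lay with DProP (0.98 ± 0.13, edgeR adjusted p = 0.00330, or 0.0567 without DEP 2). PDGFRA, the growth factor receptor of the same cells, had 0.837 and 0.948 CPM in DEP and 2.61 and 2.42 CPM in Mix (1.49 ± 0.26), GALC, a galactolipid hydrolase, had 26.5 and 25.6 CPM in DEP and 43.5 and 36.0 CPM in Mix (0.61 ± 0.10), and BCAN, a brain proteoglycan, had 1167 and 1159 CPM in DEP and 1505 and 1569 CPM in Mix with vehicle at 2106 and 2262 CPM (0.40 ± 0.09). OLIG2 was not called (0.321 and 0.212 CPM in DEP and 0.218 and 0.255 CPM in Mix, -0.17 ± 0.51, edgeR adjusted p = 0.908). Leaving out one library took the progenitor count from 5 to between 0 and 2, the proneural count from 4 to between 0 and 2, the higher neuronal count from 5 to between 0 and 3, the astrocyte count from 6 to between 0 and 5 and the oligodendrocyte count from 4 to between 0 and 3. For all but the oligodendrocyte list the lowest count came without DEP 1, shared for the progenitor list with DEP 2, and for the oligodendrocyte list it came without DEP 2.

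**Figure D5:**
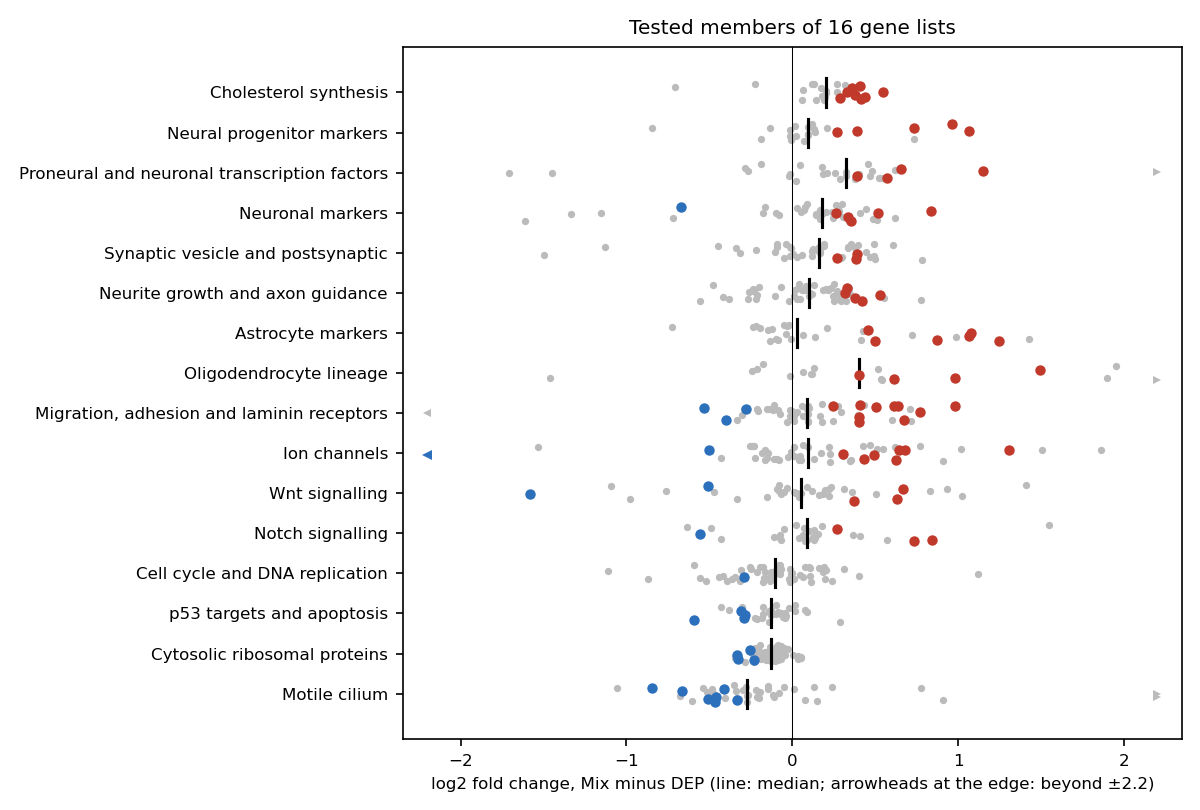
Tested members of 16 lists by log2 fold change, Mix minus DEP (x axis), with a bar for each median, red points for members higher in Mix and blue points for members lower in Mix past the threshold, and grey points for the rest. Called members lie on the right in the cholesterol, progenitor, proneural, astrocyte and oligodendrocyte lists and on the left in the p53, ribosomal and motile cilium lists.

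Migration and adhesion genes differed in 13 of 52 cases, 10 higher and 3 lower (median 0.09), or 25% against 3.86% of all genes. Beside CDH11, CSPG4 and BCAN, the naming rule gives RELN, the guidance glycoprotein reelin (9.41 and 9.65 CPM in DEP and 14.2 and 16.2 CPM in Mix, 0.67 ± 0.11), and FN1, fibronectin (39.2 and 37.7 CPM in DEP and 52.6 and 49.7 CPM in Mix, 0.41 ± 0.07). The lower members were the laminin receptor subunit ITGB1 (272 and 271 CPM in DEP and 228 and 219 CPM in Mix, -0.28 ± 0.06), the chemokine CXCL12 (32.3 and 30.3 CPM in DEP and 21.8 and 21.4 CPM in Mix, -0.53 ± 0.10) and the matrix metalloproteinase MMP2 (-0.40 ± 0.10), all named after their values were seen. CXCL12 was near vehicle in Mix (22.7 and 20.9 CPM in vehicle) and ITGB1 was below vehicle in Mix (285 and 301 CPM in vehicle). The 10 higher members became 4, 6, 2 and 1, and the 3 lower members 0, 1, 0 and 0, without Mix 1, Mix 2, DEP 1 and DEP 2.

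Most signalling lists held calls in both directions. Over all genes 2.85% were higher and 1.02% lower. In the Wnt list, 3 of 37 were higher (8.11%) and 2 lower (5.41%), with the ligand gene WNT5A among the latter (88.8 and 87.7 CPM in DEP and 60.1 and 64.0 CPM in Mix, 90.1 and 85.2 CPM in vehicle, -0.51 ± 0.10, edgeR adjusted p = 0.0200). LGR6, an R-spondin receptor (0.63 ± 0.13), and APCDD1, a Wnt inhibitor (0.37 ± 0.08), were higher with SFRP1. Notch genes were higher in 3 (10.3%) and lower in 1 (3.45%) of 29 cases: DTX1, a Notch-pathway ubiquitin ligase, had 17.2 and 18.04 CPM in DEP and 32.8 and 30.4 CPM in Mix (0.84 ± 0.16), MFNG, a glycosyltransferase that modifies Notch, had 7.91 and 6.89 CPM in DEP and 12.6 and 12.01 CPM in Mix (0.73 ± 0.17), and HES1 was higher while HEY1, another target, was lower with 40.7 and 40.8 CPM in DEP and 24.5 and 31.0 CPM in Mix (-0.56 ± 0.11). A list of 40 genes named for hedgehog and FGF signalling held 3 higher (7.5%) and 1 lower (2.5%). Of these HHIP alone acts on hedgehog signals, and the other 3 are genes of the EGF and neuregulin family that the list also holds. EGFR, the receptor for epidermal growth factor, had 773 and 777 CPM in DEP and 1125 and 1011 CPM in Mix (0.46 ± 0.07, edgeR adjusted p = 0.00518), ERBB4 was higher (0.47 ± 0.10), and NRG1, a ligand of ERBB4, was lower at low levels (0.907 and 0.495 CPM in DEP and 0.150 and 0.207 CPM in Mix, -1.97 ± 0.38). The TGF-beta genes TGFB2 (121 and 131 CPM in DEP and 193 and 171 CPM in Mix, 0.53 ± 0.08), LTBP1 (0.59 ± 0.09) and SMAD3 (0.30 ± 0.07) were the 3 higher members of 31 (9.68%). Ion channel genes were higher in 7 (13.7%) and lower in 2 (3.92%) of 51 cases. The largest increase of the 7 was that of KCNE5, an auxiliary subunit of potassium channels named after its values were seen (1.34 and 1.33 CPM in DEP and 2.78 and 3.84 CPM in Mix, 1.31 ± 0.24). The naming rule gives KCNQ3, an M-current channel (63.5 and 59.7 CPM in DEP and 111 and 85.7 CPM in Mix, 0.68 ± 0.10), KCNH7 (22.6 and 22.8 CPM in DEP and 37.2 and 32.6 CPM in Mix, 0.62 ± 0.10), the AMPA receptor and calcium channel partner CACNG4 (56.0 and 64.6 CPM in DEP and 92.2 and 96.5 CPM in Mix, 0.65 ± 0.09) and the T-type calcium channel CACNA1H (0.43 ± 0.07). KCNQ3 and KCNH7 were higher in Mix than in any other group. Without DEP 1 the higher genes of the Wnt, Notch, hedgehog and TGF-beta lists numbered 1, 0, 1 and 0. The 7 higher channels became 0 without DEP 1, and they became 4, 5 and 1 without Mix 1, Mix 2 and DEP 2.

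The calls in the cell cycle, p53, ribosomal, oxidative phosphorylation and histone lists were all lower in Mix. Of these calls, those of the ribosomal gene RPL26 and the histone gene H2AC18 ended when the GC and length trend was removed. Whether transcript length bears on the direction of these lists was not tested. Of 55 cell cycle genes 1 was lower (1.82%, against 1.02% of all genes; 37 of 55 values below 0, median -0.10), CDKN1A, the cyclin-dependent kinase inhibitor p21 (157 and 146 CPM in DEP and 119 and 128 CPM in Mix, 111 and 112 CPM in vehicle, -0.29 ± 0.06), while MKI67 (-0.07 ± 0.48) and TOP2A (-0.32 ± 0.42) were not called. Their standard errors use the spread of all groups, and the DProP libraries stood at 42.7 and 118.9 CPM for MKI67 and 20.4 and 52.9 CPM for TOP2A. CDKN1A was also 1 of 4 lower genes among 32 p53 targets (12.5% against 1.02%, 27 of 32 values below 0, median -0.13), with the kinase gene PLK2 (27.8 and 24.7 CPM in DEP and 16.02 and 18.8 CPM in Mix, -0.59 ± 0.10), the repair gene XPC (-0.31 ± 0.07) and the BH3-only gene BCL2L11 (-0.28 ± 0.06). Without Mix 1 or DEP 1 that count was 0, without DEP 2 it was 1, and without Mix 2 it was 5. edgeR called 0 of 32 immediate early genes (5 at an unadjusted p under 0.05, 1 by DESeq2 and 0 by limma-voom) and 0 of 39 heat shock and chaperone genes (6, 3 and 0 in the same order). It also called 0 of 18 smooth muscle genes (6, 1 and 0), 0 of 13 mitochondrially encoded genes (4, 1 and 0; all 13 values above 0, median 0.26) and 0 of 30 imprinted genes (8, 2 and 0). Cytosolic ribosomal protein genes were lower in 4 of 79 cases (5.06%), including RPS25 (-0.33 ± 0.08) and RPL23 (-0.25 ± 0.06), with a median of -0.13 and 74 of 79 values below 0, and that count was 0 without any 1 of the 4 libraries. Nuclear oxidative phosphorylation genes were lower in 2 of 71 (2.82%; UQCRB, -0.28 ± 0.06, and NDUFA10, -0.25 ± 0.06), and histone genes in 2 of 56 (3.57%; H4C8, -0.66 ± 0.14, and H2AC18, -0.57 ± 0.13), against 1.02% of all genes, and both counts were 0 without any 1 of the 4 libraries.

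Metal-handling genes included MT1X, whose call ended in 1 alternative. MT1X, a metallothionein that binds zinc and copper, had 27.1 and 26.4 CPM in DEP and 13.3 and 15.7 CPM in Mix, against 11.2 and 14.1 CPM in vehicle, 17.4 and 15.9 CPM in DProP and 30.0 and 31.7 CPM in DPP. Mix lay close to vehicle and the DEP libraries lay apart above it (log2 fold change -0.89 ± 0.12, edgeR adjusted p = 0.00269, or 0.0541 without DEP 1). Metallothioneins are near-identical in sequence, so reads may be shared among them. FTH1, the ferritin heavy chain, was lower too (453 and 435 CPM in DEP and 309 and 365 CPM in Mix, -0.40 ± 0.10), and it stayed below 0 in all 14 alternatives (from -0.522 to -0.285), while its call ended without Mix 1, DEP 1 or DEP 2 and after the GC and length trend was removed (edgeR adjusted p up to 0.296). The iron genes SLC40A1, the exporter ferroportin (4.73 and 4.48 CPM in DEP and 9.54 and 6.68 CPM in Mix, 0.82 ± 0.17), and STEAP3, a ferrireductase (0.48 ± 0.09), were higher. These were the 4 calls among 20 tested (20%, against 3.86% of all genes). The 250 bases before the MT1X start site (chr16:56682220-56682469, plus strand) are shown for the metal response elements through which zinc acts on these genes. Their core was searched as TGCACNC or TGCGCNC on both strands; 4 matches, in capitals, lie in this window, 24.8% of all promoter entries hold at least 1 and 0.370% hold 4 or more.
MT1X: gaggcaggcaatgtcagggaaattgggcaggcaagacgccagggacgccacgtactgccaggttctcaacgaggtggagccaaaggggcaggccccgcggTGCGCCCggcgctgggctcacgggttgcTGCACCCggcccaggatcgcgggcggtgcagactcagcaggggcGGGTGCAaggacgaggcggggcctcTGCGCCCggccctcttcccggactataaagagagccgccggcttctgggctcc

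The remaining lists held from 0 to 4 calls. Where any was made, the share of members called ran from 3.45% to 16.7%, against 3.86% of all genes. ELOVL2, an elongase of long polyunsaturated fatty acids, had 9.13 and 11.7 CPM in DEP and 27.1 and 21.1 CPM in Mix (1.22 ± 0.18), 1 of 19 fatty acid synthesis genes. CPT1C, the neuronal carnitine palmitoyltransferase (50.7 and 54.2 CPM in DEP and 77.2 and 84.2 CPM in Mix, 0.62 ± 0.07), and PLIN2, a lipid droplet coat protein (10.6 and 10.9 CPM in DEP and 18.6 and 15.9 CPM in Mix, 0.68 ± 0.12), were the 2 higher members of 37 PPAR targets. AHR, the dioxin receptor, had 30.1 and 29.9 CPM in DEP and 44.8 and 38.4 CPM in Mix (0.47 ± 0.09) and was the sole call among 26 genes of ester hydrolysis and xenobiotic metabolism (3.85%, at the share of all genes). Of 35 NFE2L2 and redox genes GPX3 was higher (15.2 and 18.5 CPM in DEP and 30.1 and 28.6 CPM in Mix, 0.80 ± 0.15) and SOD1 (139 and 143 CPM in DEP and 120.2 and 118 CPM in Mix, -0.24 ± 0.06) and FTH1 were lower. IGFBP4 (0.68 ± 0.14) and IGFBP7 (0.51 ± 0.10), which bind insulin-like growth factors or their kin, were higher, and the RNA-binding protein gene IGF2BP2 was lower (-0.40 ± 0.08). COL6A2 was higher (0.30 ± 0.06) and COL22A1 lower (-0.58 ± 0.12) among 31 collagen genes. PDGFRB, a pericyte receptor, was the 1 lower gene of 13 mesenchymal markers (65.4 and 60.9 CPM in DEP and 40.8 and 47.3 CPM in Mix, -0.52 ± 0.10), and PMP22 the 1 lower gene of 12 neural crest and Schwann markers (-0.30 ± 0.07). Of 37 genes of inflammation and complement 4 were higher: SERPING1, the acute-phase inhibitor SERPINA3 (1.25 ± 0.31), complement factor I (CFI, 0.36 ± 0.08) and the oncostatin M receptor OSMR (0.32 ± 0.08). Steroid and retinoid targets were higher in 2 of 31 cases (CRISPLD2, 0.87 ± 0.16, and RARB, 0.80 ± 0.19), and ATF4 targets in 2 of 35 (ALDH1L2, 0.70 ± 0.15, and VLDLR). Hypoxia and glycolysis genes held CA12 (0.36 ± 0.08) and ENO2 (0.34 ± 0.06) on the higher side and P4HA1 (-0.33 ± 0.08) on the lower side, of 39. TGFB2 was the sole call among 23 YAP targets (4.35%) and MIAT (0.34 ± 0.08) among 29 nuclear lncRNAs (3.45%), both near the 3.86% of all genes. edgeR called 0 of 9 endothelial markers (0 at an unadjusted p under 0.05, 0 by DESeq2 and 0 by limma-voom) and 0 of 10 epithelial and choroid plexus markers (2, 0 and 0).

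Counts of calls set the size of this difference beside the others that involve these libraries. Mix differed from DProP in 1342 genes (6.89%), from DPP in 3359 (17.3%) and from vehicle in 3970 (20.4%), and DEP differed from vehicle in 4601 (23.6%). Without Mix 1 the first 3 counts were 401, 1918 and 1621, without Mix 2 those against DProP and DPP were 785 and 1952, and the last count was 2128 without DEP 1 and 2340 without DEP 2. These comparisons share libraries, and whether the counts differ from 752 was not tested. Values against vehicle for the genes above lay side by side as follows: SERPING1 had log2 fold changes of 1.01 in Mix and -0.99 in DEP, PTGDS 0.07 and -1.06, and NEUROD1 0.01 and -1.14. For SOX3 the values were 1.08 and 0.01, for SFRP1 0.62 and -0.05, and for STARD4 0.46 and 0.05. DNAI1 stood at -0.999 in Mix and -0.16 in DEP, MT1X at 0.19 and 1.08, and NEFL at -0.88 and -0.22.

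Some calls rest on counts that are present in one group and absent in the other. In 17 called genes both libraries of a group had a count of 0, and their fold changes are given against a floor of 3 counts over that group. These values leave out the spread of the counts in the other group. LOC107985946 had 66 and 68 counts in DEP and 0 and 0 in Mix, 42.7-fold lower in Mix against the floor. ANO1, a calcium-activated chloride channel gene, had 17 and 8 counts in DEP and 0 and 0 in Mix, 7.96-fold lower against the floor. The ANO1 call ended in 5 alternatives, limma-voom among them. SLC6A2, the noradrenaline transporter, had 23 and 19 counts in Mix and 0 and 0 in DEP, 14.6-fold higher against the floor. The first and the last of these were named after their values were seen. Replicates of 1 group show the same kind of jump: 60 tested genes had 0 counts in 1 DEP library and at least 20 in the other, and 57 did so between the Mix libraries. SOX10, a factor of oligodendrocytes and neural crest, had 48 and 51 counts in DEP, 36 and 0 in Mix, and 0 and 0 in vehicle. Whether such jumps bear on the 17 calls was not tested.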

How the data were processed

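RNA-seq counts of 10 libraries (5 groups of 2) were used as deposited by the authors: raw read counts per NCBI gene, not normalised. Per the submitters' processing notes, the tools were HISAT2 2.1.0 and StringTie 2.1.3b after Trimmomatic 0.38 and FastQC, with R 4.3.2 and edgeR 4.0.9, on GRCh38; their roles, the annotation release and strandedness were not stated. Totals in the DEP and Mix libraries ran from 61682236 to 72973100 counts, with a biological coefficient of variation of 9.40% in common and a median half-width of 0.26 (log2) for the 95% interval of a fold change. edgeR 4.0.16 in R 4.3.3 (filterByExpr, TMM, robust quasi-likelihood fit of all 10 libraries, 5 residual degrees of freedom) tested Mix minus DEP. CPM values use the TMM factors, and ± after a log2 fold change is its standard error. An exact permutation test per gene could not reach 0.05 with 2 libraries a group, so p values rest on the spread pooled over groups. Coordinates are from RefSeq GRCh38.p14. The comparison, the 44 gene lists and the naming rule were chosen with earlier results of these data known. The rule takes the 12 largest increases and decreases past the threshold with a mean of at least 1 CPM and groups apart, up to 4 called members per list (2 with the smallest p where none was called) and fixed markers; some genes that it gives are counted in their lists but not reported here by name. Alternatives included DESeq2 1.42.0 and limma-voom (limma 3.58.1), other scaling, filters and sample sets, and a lowess correction for GC content and length (span 0.3). The tests were checked on simulated counts drawn without a culture or batch effect, so that check cannot bear on such an effect.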

Additional observations from a re-analysis of the deposited data

How the results depend on the processing

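For Mix against DEP the count of 752 was 1368 with DESeq2, 1345 in a fit of the Mix and DEP libraries alone, 99 with a 2-fold minimum, 1272 with the GC and length trend removed, and from 36 (without DEP 1) to 421 (without Mix 2) without 1 library. It stayed within 1.5 times of 752 with RLE factors (715), library size alone (688), no filter (722), the stricter filter (1025), limma-voom (738), without both vehicle libraries (733) and with the replicate block (651). With a 2-fold minimum the counts were 810 for Mix against vehicle, 995 for DEP against vehicle, 245 for Mix against DProP and 576 for Mix against DPP. The balance against vehicle hung on scaling. Mix against vehicle had 1891 higher and 2079 lower genes with TMM factors, and 4605 and 1020 with library size alone. DEP against vehicle had 1964 higher and 2637 lower genes with TMM factors, and 4794 and 1259 with library size alone. Leaving out 1 Mix or DEP library gave from 1621 to 3415 genes for Mix against vehicle, 2128 to 4452 for DEP against vehicle, 401 to 955 for Mix against DProP and 1918 to 2899 for Mix against DPP. Libraries with the same number showed no shared shift: over 10 pairs of groups, the correlation of their replicate differences across genes lay between -0.0465 and 0.0471. The labels give no pairing of libraries either, so the replicate block (651) rests on the numbers alone, and how the cultures were set up is not shown by these correlations. Signs turned only in genes that were not called: without 1 library VIM ranged from -0.106 to 0.0716, OLIG2 from -0.440 to 0.153, MKI67 from -0.239 to 0.0882 and CD68 from -0.127 to 0.216, and S100B was at 0.0421 with the GC and length trend removed. Of 168 called genes followed one by one, 31 kept their call in every alternative other than the 2-fold minimum and 137 lost it in at least 1. The 31 are the 30 called in all 14 alternatives and BPIFB2, to which DESeq2 gave no adjusted p. The cause of these shifts was not tested, except that leaving out a library leaves 1 in that group, which is then assumed to vary like the other groups. The depth of these libraries limits genes at low counts: 48 called genes had a DEP mean below 1 CPM.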
